A study of Mus musculus with 12 samples.

Results

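The 8 genes described here are Lin28a, Lin28b, Trim71, Hmga1, Hmga2, Igf2bp1, Igf2bp2 and Igf2bp3, which encode the RNA-binding and chromatin-binding proteins of the LIN28 and let-7 pathway. They were taken by gene symbol from the deposited count table, as 8 of its 24495 genes. All 8 passed the filter on low counts that left 15532 genes for testing. RNA was measured by poly(A) RNA-seq in CCE-Nanog-GFP mouse embryonic stem cells (mESCs, which carry a GFP reporter of Nanog) and in the embryoid bodies (EBs) formed from them. The control line shSC, whose libraries are labelled scr and WT, carried a scrambled shRNA, and the line shCTSL, labelled CTSL KD, carried an shRNA against cathepsin L. Both lines were made by lentiviral transduction and puromycin selection, and the labels do not say which hairpin the shCTSL line held. At Day 0 the cells were undifferentiated mESCs kept with LIF and sorted for GFP, and at Day 2 and Day 4 they were EBs rotated without LIF in all-trans retinoic acid. Each of the 6 groups had 2 libraries labelled as replicates.

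LIN28A and LIN28B bind the precursors of let-7 microRNAs and keep them from being processed, so mature let-7 stays scarce in embryonic stem cells. Mature let-7 represses mRNAs that carry matches to its seed in their 3′ UTRs, among them those of LIN28A, LIN28B, TRIM71, HMGA2 and the IGF2BP proteins. TRIM71 (LIN-41) is an RNA-binding protein and ubiquitin ligase, HMGA1 and HMGA2 bend AT-rich DNA, and IGF2BP1, IGF2BP2 and IGF2BP3 bind mRNAs and hold them stable. The 8 genes are active in embryonic tissues, mostly silent in adult ones and active again in many tumours, hence the name oncofetal.

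The mature let-7 sequences and the matching sites are shown because the genes are grouped by this shared regulator. RefSeq (GRCm38.p6) lists 11 mature members of the mouse let-7 family, of which 10 have the seed GAGGUAG at bases 2 to 8 and let-7j has another. In the sequences of 4 of them the seed is in capitals.
mmu-let-7a-5p: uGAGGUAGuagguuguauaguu
mmu-let-7g-5p: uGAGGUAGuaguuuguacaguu
mmu-miR-98-5p: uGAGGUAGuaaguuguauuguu
mmu-let-7j: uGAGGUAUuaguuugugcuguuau

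The annotated 3′ UTRs of the members (GENCODE M1 on mm9, the longest 3′ UTR of each gene) were searched on the sense strand for CTACCTCA, the full match of 8 bases to the seed and the adjoining base, and for the shorter matches CTACCTC and TACCTCA where they are not part of it. The full match was present in 7 of the 8 genes, with 3 matches in Igf2bp1, 2 in Lin28a, 2 in Trim71 and 1 each in Lin28b, Hmga2, Igf2bp2 and Igf2bp3. Of all 19915 genes with an annotated 3′ UTR, 601 (3.02%) held it, and 13.99% held any of the 3 matches. Among 3′ UTRs within 25% of the member's own length the share with the full match ran from 2.99% for Hmga1 to 12.4% for Igf2bp1. Hmga1 held only a single shorter match, and Hmga2 held the most matches of any kind, 7. The genes were chosen as let-7 targets and partners, so the matches describe them and are no finding. The first full match of each gene is given with the match in capitals, 22 bases 5′ to 3′ on the strand of the mRNA, which is the minus strand of mm9 for all 7.
Lin28a, chr4:133561104-133561125: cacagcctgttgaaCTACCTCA
Lin28b, chr10:45100828-45100849: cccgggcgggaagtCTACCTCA
Trim71, chr9:114421590-114421611: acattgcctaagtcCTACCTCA
Hmga2, chr10:119801280-119801301: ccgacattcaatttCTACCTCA
Igf2bp1, chr11:95823092-95823113: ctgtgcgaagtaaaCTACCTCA
Igf2bp2, chr16:22059546-22059567: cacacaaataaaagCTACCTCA
Igf2bp3, chr6:49036786-49036807: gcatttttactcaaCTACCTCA

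**Figure D1:**
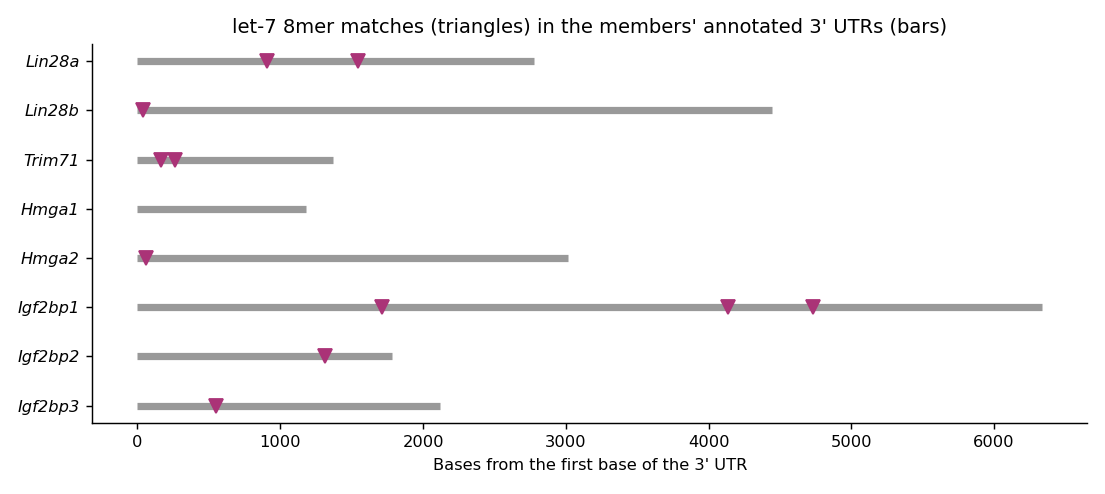
Places of the full let-7 matches (triangles) along the annotated 3′ UTR of each member (grey bars), in bases from the first base of the 3′ UTR. The matches of Lin28b and Hmga2 begin 36 and 58 bases into the UTR, and Hmga1 has none.

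The 12 libraries held 11171111 to 27155553 counts. Chi-square per degree of freedom compares the variance between libraries of a group with that of counting. Over the genes tested it was 2.51 to 9.99 in 5 groups. The shCTSL Day 2 libraries stood apart at 127. Their log2 replicate ratios had an SD of 0.72, against 0.31 to 0.56 in the other groups. In shCTSL at Day 2 the ribosomal gene Rn45s took 3.43% of the counts of replicate 1 and 0.553% of replicate 2. Only some of the results that rest on the shCTSL Day 2 libraries are also given without them. Ctsl, the targeted gene, stood at 137 and 147 normalized CPM (counts relative to the TMM-scaled library size) in shSC and 37.5 and 39.2 in shCTSL at Day 0. It stood at 369 and 391 against 155 and 211 CPM at Day 2, and at 423 and 484 against 253 and 257 CPM at Day 4. The libraries of the lines did not overlap on any day. Ctsl was 3.70-fold lower in shCTSL at Day 0 (adjusted p = 0.00246, edgeR), 2.08-fold lower at Day 2 (adjusted p = 0.0342) and 1.78-fold lower at Day 4, where it missed the threshold (adjusted p = 0.0896). Ctsl was no longer called at Day 0 when either of the shCTSL libraries of that day was left out (-1.93 and -1.86, with adjusted p of 0.117 and 0.129). The Day 2 call was lost in limma-voom (adjusted p = 0.428), with the replicate block (0.0631), with the libraries compared alone (0.708) and in 10 of the 12 fits that left out 1 library, all but those without a shCTSL Day 2 library. Summed over 7 pluripotency markers the level fell from 5228 to 5753 CPM at Day 0 to 284 to 362 CPM at Day 4 over both lines. The sum of 6 retinoic acid targets rose from 5.82 to 6.64 CPM at Day 0 to 1546 to 1721 CPM at Day 4. The 6 visceral endoderm markers summed to 3.804 to 5.03 CPM at Day 0 and 257 to 356 CPM at Day 4, the 5 mesoderm and endothelium markers to 61.7 to 88.0 and 160 to 225 CPM, the 5 fibroblast markers to 6.53 to 10.8 and 56.7 to 67.8 CPM, and the 5 neural markers to 178 to 203 and 71.4 to 118 CPM. Of the neural markers 4 were called higher and 1, Tubb3, lower in each line, and of the 7 pluripotency markers all were called lower. Of the 4 mesoderm and endothelium markers tested, 2 were called higher and 2 lower in shCTSL. In shSC 2 were called higher and Pecam1 lower (log2 fold change -0.88, SE 0.13). The fibroblast markers had 4 called higher and 1 lower in each line, which in shSC was Thy1 (-1.60, SE 0.25). In bulk RNA, fewer cells of a type and less RNA per cell cannot be told apart, and the part of these shifts in the changes of the members was not tested.

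From Day 0 to Day 4 all 8 genes changed in both lines, and they did not move together. Lin28a, Lin28b, Trim71, Hmga1 and Igf2bp1 fell, and Hmga2, Igf2bp2 and Igf2bp3 rose. A gene is called here when it passes an adjusted p of 0.05 (edgeR's quasi-likelihood test, Benjamini-Hochberg over all genes tested) with at least a 1.5-fold change. Called changes were common at large: in shSC, 32.1% of all genes tested were called higher at Day 4 and 28.7% lower, and in shCTSL 32.3% and 27.6%. The median log2 fold change of the 8 genes was -1.09 in shSC and -1.31 in shCTSL, against 0.03 and 0.06 over all genes tested. These comparisons share no library between the lines, but the days within a line share theirs.

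Lin28a (chr4:133559245-133574756, minus strand), the LIN28 protein of the pluripotent state, was the member with the steepest fall. In shSC it stood at 698 and 725 CPM at Day 0, 163 and 167 CPM at Day 2 and 77.2 and 81.0 CPM at Day 4. In shCTSL it stood at 765 and 745, 134 and 154, and 76.4 and 79.8 CPM on the same days. No library of a later day reached one of an earlier day in either line, and at Day 4 the libraries of the lines overlapped. The log2 fold change from Day 0 to Day 4 was -3.17 (SE 0.11, adjusted p = 9.71e-09) in shSC and -3.27 (SE 0.11, adjusted p = 8.91e-09) in shCTSL. Most of it had come by Day 2, with -2.11 in shSC and -2.39 in shCTSL, and the step from Day 2 to Day 4 was called as well, at -1.06 and -0.89. In windows of 75 bases, 8.71% of the Lin28a transcript was found elsewhere in the mm9 genome, on chromosome 7, and reads from there would not have passed the mapping filter.

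Lin28b (chr10:45096426-45206201, minus strand) was not called lower until Day 4, while Lin28a was already called lower at Day 2. Its shSC libraries held 82.8 and 78.9 CPM at Day 0, 82.4 and 92.1 at Day 2, and 36.4 and 39.5 at Day 4. The shCTSL libraries held 91.2 and 90.8, then 58.5 and 88.8, then 33.7 and 32.1 CPM. Day 0 and Day 2 overlapped in shSC, and the Day 4 libraries lay below all others in both lines. The change from Day 0 to Day 2 was not called in either line, at 0.11 (95% interval -0.26 to 0.48, adjusted p = 0.584) in shSC and -0.30 (-0.68 to 0.07, adjusted p = 0.140) in shCTSL. Without shCTSL Day 2 replicate 2 the second value was -0.64 and called (adjusted p = 2.54e-05), in a fit that called 31.2% of all genes higher and 26.7% lower, and without replicate 1 it was 0.0078. From Day 2 to Day 4 Lin28b fell in both lines, with -1.20 (SE 0.17, adjusted p = 0.00057) in the control line and -1.16 (SE 0.17, adjusted p = 0.000793) in the knockdown line. With 1 library left out the knockdown value ran from -1.46 to -0.83. Per kilobase of exon, Lin28b was 4.21% (SD 0.25) of the summed Lin28 level in shSC at Day 0, 17.0% (SD 0.90) at Day 2 and 15.6% (SD 0.31) at Day 4. In shCTSL the shares were 4.46% (SD 0.064), 16.3% (SD 2.7) and 14.02% (SD 0.78), so Lin28a remained the larger part in every library.

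Trim71 (chr9:114420393-114473487, minus strand), a let-7 target and itself a repressor of mRNAs, fell with Lin28a. In shSC it stood at 247 and 243 CPM, then 74.3 and 70.5, then 46.0 and 39.0 on Days 0, 2 and 4. In shCTSL it stood at 146 and 171 CPM at Day 0, 18.0 and 85.6 at Day 2, and 36.6 and 29.1 at Day 4. The shCTSL Day 2 libraries thus lay on either side of the shSC ones and differed by 2.25 on the log2 scale. The fall from Day 0 to Day 4 was -2.53 (SE 0.52, adjusted p = 0.00144) in shSC and -2.27 (SE 0.51, adjusted p = 0.00283) in shCTSL. The fall from Day 0 to Day 2 was -1.76 in shSC (adjusted p = 0.0107), and it lost its call when either of the shSC Day 2 libraries was left out (-1.80, adjusted p = 0.0549, and -1.72, adjusted p = 0.0614). In shCTSL it was -1.603 (adjusted p = 0.0171), -3.13 without Day 2 replicate 2, -0.84 without Day 2 replicate 1, and without Day 0 replicate 2 it lost its call (-1.49, adjusted p = 0.0693). From Day 2 to Day 4 neither line was called, at -0.77 (adjusted p = 0.281) in shSC and -0.67 (adjusted p = 0.347) in shCTSL. The shSC change was called at -0.79 (adjusted p = 8.31e-06) when both shCTSL Day 2 libraries were left out (13.1% of all genes called higher and 15% lower), and the shCTSL change ran from 0.86 without Day 2 replicate 2 to -1.41 without replicate 1.

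Hmga1 (chr17:27693565-27700619, plus strand), an architectural chromatin protein, gave only 17 to 78 counts per library and is uncertain. Of the 75-base windows of its transcript, 61.8% were found exactly elsewhere in mm9, and reads from those windows map to more than 1 place and would have been removed by the mapping filter. With that limit, Hmga1 stood at 5.11 and 4.83 CPM in shSC at Day 0, 2.29 and 2.41 at Day 2, and 2.34 and 2.36 at Day 4. In shCTSL it stood at 3.804 and 4.42, then 1.78 and 2.51, then 1.14 and 0.84 CPM. The shSC libraries fell once, by Day 2 (-1.08, SE 0.21, adjusted p = 0.00113), and differed by 0.0020 from Day 2 to Day 4, whereas in shCTSL the fall from Day 2 to Day 4 was called at -1.15 (SE 0.25, adjusted p = 0.00738). Without shCTSL Day 4 replicate 2 that step lost its call (-0.93, adjusted p = 0.0710), as it did in limma-voom (-1.14, adjusted p = 0.308). From Day 0 to Day 4 the change was -1.08 in shSC and -2.05 in shCTSL, and the test of that difference between the lines gave -0.97 (SE 0.33, adjusted p = 0.668).

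Hmga2 (chr10:119798331-119913525, minus strand), the classic let-7 target among chromatin proteins, rose most. It stood at 24.1 and 22.1 CPM in shSC at Day 0, 116 and 126 at Day 2, and 280 and 312 at Day 4. The shCTSL libraries held 28.4 and 27.7, then 90.8 and 103, then 301 and 293 CPM. The 3 days did not overlap in either line, and the lines overlapped only at Day 4. The change from Day 0 to Day 4 was 3.68 (SE 0.12, adjusted p = 7.97e-09), or 12.8-fold, in shSC and 3.40 (SE 0.12, adjusted p = 1.25e-08), or 10.6-fold, in shCTSL. It rose by 2.40 to Day 2 and a further 1.29 to Day 4 in shSC, and by 1.78 and 1.62 in shCTSL, and all 4 steps were called. Of its 3736 transcript windows of 75 bases, 524 were found elsewhere, on chromosome 1. A row named Hmga2-ps1, a pseudogene by its name, held 9 to 163 counts per library, so some Hmga2 reads may be counted or lost there.

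Igf2bp1 (chr11:95818477-95867254, minus strand), which shields Myc and other mRNAs from decay, fell by Day 2 and less thereafter. It stood at 1047 and 1042 CPM in shSC at Day 0, 616 and 640 at Day 2, and 482 and 472 at Day 4. Those of shCTSL held 953 and 1030, then 455 and 621, then 451 and 446 CPM. Each day lay below the one before in both lines, though shCTSL Day 2 replicate 1 (455 CPM) lay close to Day 4 replicate 1 (451 CPM). The change to Day 4 was -1.13 (SE 0.13, adjusted p = 3.45e-05) and -1.14 (SE 0.13, adjusted p = 3.26e-05). The step from Day 2 to Day 4 was under 1.5-fold in both, at -0.40 in shSC (adjusted p = 0.0475) and -0.26 in shCTSL (adjusted p = 0.170). With 1 library left out the shCTSL step ran from -0.49 to -0.022, and that from Day 0 to Day 2 from -1.12 to -0.63.

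Igf2bp2 (chr16:22059082-22163372, minus strand), the family member that is also expressed in adult tissues, moved late. In shSC it stood at 102 and 103 CPM at Day 0, 87.3 and 95.6 at Day 2, and 160 and 152 at Day 4. The shCTSL libraries held 63.3 and 64.9, then 55.6 and 87.5, then 136 and 137 CPM. From Day 0 to Day 2 it was not called, at -0.17 (95% interval -0.55 to 0.22, adjusted p = 0.420) in shSC and 0.16 (-0.23 to 0.55, adjusted p = 0.438) in shCTSL. From Day 2 to Day 4 it rose by 0.77 (SE 0.17, adjusted p = 0.00728) and 0.93 (SE 0.17, adjusted p = 0.00292). With 1 library left out the shCTSL rise ran from 0.62 to 1.29. The shSC rise lost its call without Day 2 replicate 1 (0.70, adjusted p = 0.0702) or Day 4 replicate 1 (0.73, adjusted p = 0.0545). Over the whole span it rose 1.52-fold in shSC and 2.13-fold in shCTSL, and the shSC change lay close to the threshold. It lost its call without shSC Day 0 replicate 1 (0.59, adjusted p = 0.0539) or Day 4 replicate 1 (0.57, adjusted p = 0.0520), and was 0.35, under 1.5-fold, after offsets for exonic length.

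Igf2bp3 (chr6:49035220-49164953, minus strand), the member most restricted to embryonic and tumour cells, moved early. It stood at 107 and 103 CPM in shSC at Day 0, 304 and 326 at Day 2, and 270 and 287 at Day 4. In shCTSL it stood at 99.96 and 109, then 336 and 348, then 294 and 308 CPM. The Day 4 libraries lay below the Day 2 libraries and far above the Day 0 libraries in both lines. The rise to Day 2 was 1.59 (SE 0.097, adjusted p = 5.21e-07) in shSC and 1.71 (SE 0.098, adjusted p = 3.43e-07) in shCTSL. The step from Day 2 to Day 4, at -0.18 and -0.19, was not called (adjusted p = 0.192 and 0.167).

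**Figure D2:**
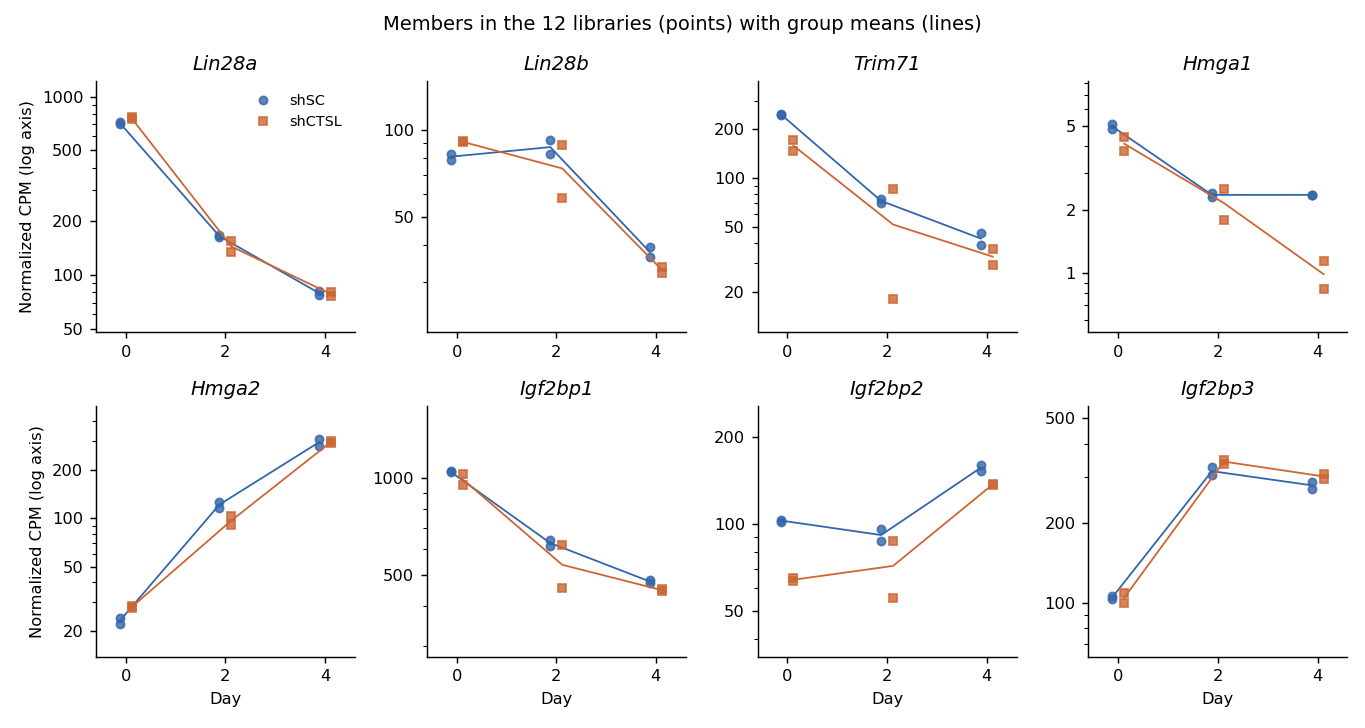
Normalized CPM (log axis, its range set per gene) of the 8 genes against day in shSC (circles) and shCTSL (squares), 1 point per library and lines through the means of 2. Lin28a falls from 698 to 765 CPM at Day 0 to 76.4 to 81.0 CPM at Day 4, Hmga2 climbs from 22.1 to 28.4 CPM to 280 to 312 CPM, and the shCTSL Day 2 points of Trim71 lie at 18.0 and 85.6 CPM.

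In the first step, Day 0 to Day 2, 6 of the 8 genes were called in each line, 2 higher (Hmga2 and Igf2bp3) and 4 lower (Lin28a, Trim71, Hmga1 and Igf2bp1). Over all genes tested 29.3% were called higher and 25.3% lower in shSC, and 30.9% and 24.6% in shCTSL. In shCTSL the call of Hmga1 was lost in limma-voom (adjusted p = 0.213) and with the libraries compared alone (0.0692), and that of Trim71 with the libraries compared alone (0.109). In the second step, Day 2 to Day 4, 4 genes were called in shSC, Hmga2 and Igf2bp2 higher and Lin28a and Lin28b lower. The same 4 and Hmga1 were called in shCTSL. Over all genes tested 11.4% were called higher and 12.4% lower in shSC in that step, and 11% and 12.4% in shCTSL. With the libraries compared alone, the shCTSL calls of Lin28a (adjusted p = 0.0521), Lin28b (0.0586), Hmga1 (0.1203) and Igf2bp2 (0.1097) in that step were lost.

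**Figure D3:**
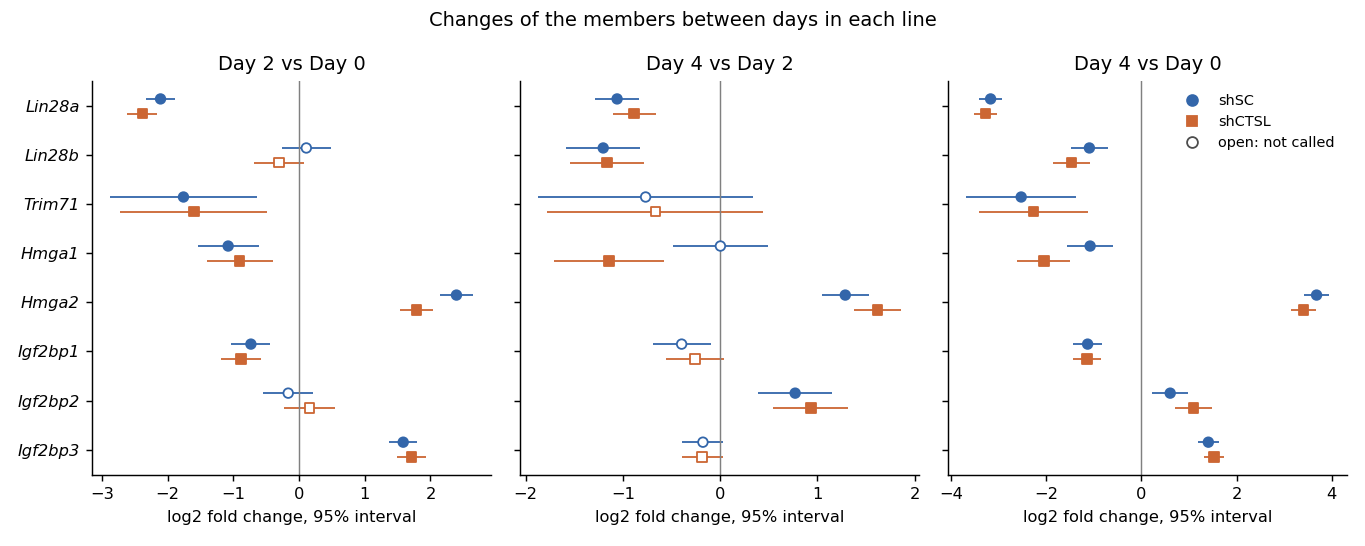
Log2 fold changes of the 8 genes between days in shSC (circles) and shCTSL (squares) with 95% intervals from the fit, filled where called and open where not. Lin28b and Igf2bp2 are open in the first step and filled in the second, and Trim71 has the widest intervals.

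Per kilobase of exon, which scales the genes for length, the order of levels was rearranged. The length of a gene was the union of its annotated exons. For Lin28b (9065 bases), Hmga2 (6772) and Igf2bp2 (7131) it far exceeded that of the longest coding transcript (5402, 3810 and 3899). Levels by transcript length were not computed, and the order, the sums and the shares within families may differ with them. At Day 0 in shSC Lin28a led with 203 CPM per kb (SD 5.5, n = 2), ahead of Igf2bp1 (108, SD 0.39), Trim71 (47.2, SD 0.62), Igf2bp3 (24.2, SD 0.51), Igf2bp2 (14.4, SD 0.17), Lin28b (8.92, SD 0.31), Hmga2 (3.41, SD 0.21) and Hmga1 (2.50, SD 0.098). No neighbours in that order overlapped. Counted per kilobase of the sequence found once in mm9, Hmga1 stood at 6.54 (SD 0.26) and Hmga2 at 3.96 (SD 0.25), so the order of these genes turned. At Day 4 in shSC the order was Igf2bp3 (64.1, SD 2.7), Igf2bp1 (49.3, SD 0.79), Hmga2 (43.7, SD 3.3), Lin28a (22.6, SD 0.77), Igf2bp2 (21.9, SD 0.73), Trim71 (8.19, SD 0.96), Lin28b (4.18, SD 0.24) and Hmga1 (1.18, SD 0.0056), with Lin28a and Igf2bp2 overlapping. Scaled for its windows found elsewhere, Hmga2 stood at 50.9 (SD 3.9) on that day, against 49.3 for Igf2bp1, and the libraries of both genes overlapped. At Day 4 in shCTSL the order by full length was the same, from Igf2bp3 at 69.2 CPM per kb (SD 2.2) to Hmga1 at 0.50 (SD 0.11), and no neighbours overlapped. At Day 2 in shCTSL the levels of Igf2bp2, Trim71 and Lin28b overlapped their neighbours.

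The Igf2bp genes exchanged places in their sum. Summed per kilobase, the 3 genes held 146 to 147 CPM per kb in shSC at Day 0, 146 to 154 at Day 2 and 134 to 136 at Day 4, and the range over all 12 libraries was 130 to 157. Igf2bp1 made up 73.7% (SD 0.10) of the sum at Day 0, 43.2% (SD 0.61) at Day 2 and 36.4% (SD 0.90) at Day 4 in shSC. Igf2bp3 made up 16.5% (SD 0.27), 48.3% (SD 0.41) and 47.4% (SD 1.6) on those days, and Igf2bp2 9.83% (SD 0.16), 8.54% (SD 0.20) and 16.2% (SD 0.68). In shCTSL the share of Igf2bp1 went from 75.6% (SD 0.094) over 38.2% (SD 3.8) to 34.4% (SD 0.78) and that of Igf2bp3 from 17.8% (SD 0.15) over 54.9% (SD 5.2) to 51.4% (SD 0.93). The Lin28 sum, by contrast, fell from 208 to 216 CPM per kb in shSC at Day 0 to 26.04 to 27.5 at Day 4.

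**Figure D4:**
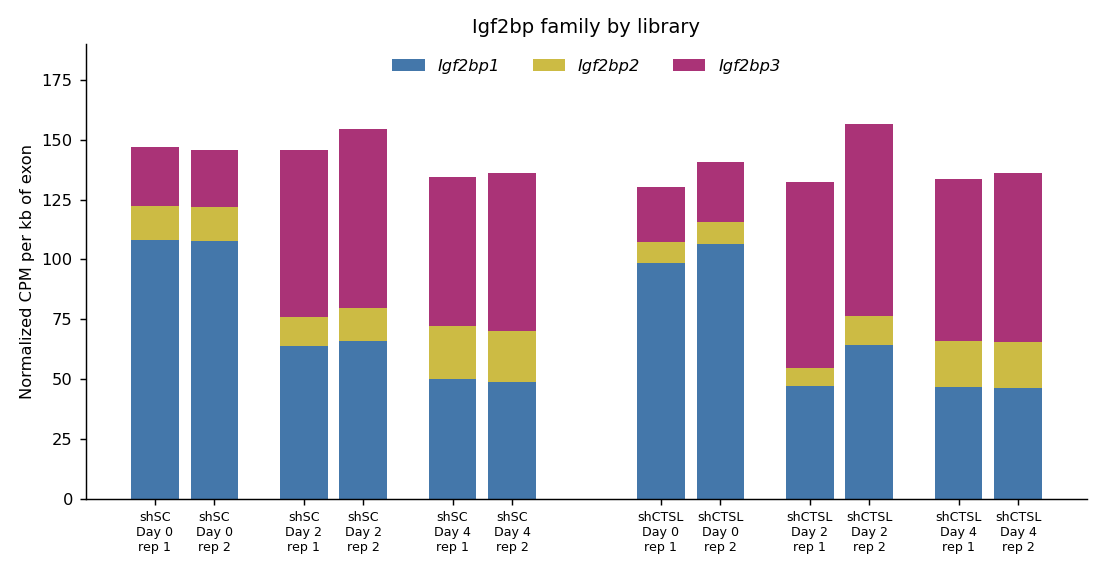
Stacked bars of Igf2bp1, Igf2bp2 and Igf2bp3 in normalized CPM per kb of exon, 1 bar per library. The height of the bars stays between 130 and 157 CPM per kb while Igf2bp1 shrinks and Igf2bp3 grows.

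Between the lines, none of the 8 genes was called on any day, averaged over days, or in the differences between the lines in the change over days. Genes called between the lines were few in all. Some marker sums did not overlap between the lines. The mesoderm and endothelium markers summed to 86.5 to 88.0 CPM in shSC and 61.7 to 66.5 in shCTSL at Day 0, 133 to 143 and 43.3 to 77.5 at Day 2, and 217 to 225 and 160 to 196 at Day 4. The neural markers summed to 189 to 203 and 178 to 179 CPM at Day 0, 96.8 to 97.4 and 109 to 131 at Day 2, and 89.8 to 118 and 71.4 to 80.4 at Day 4. The fibroblast markers were at 10.2 to 10.8 and 6.53 to 8.13 CPM at Day 0 and 27.4 to 28.3 and 21.2 to 24.9 at Day 2. The pluripotency markers summed to 5625 to 5753 CPM in shSC and 5228 to 5257 in shCTSL at Day 0. The retinoic acid targets summed to 2463 to 2468 and 2676 to 3522 CPM at Day 2. The other marker sums overlapped between the lines. At Day 0 Pecam1 alone held 83.5 CPM (SD 1.4) in shSC and 60.5 (SD 2.7) in shCTSL, most of the mesoderm and endothelium sum. Tubb3 likewise held 170 (SD 9.6) and 148 (SD 1.8) CPM of the neural sum. No gene tested of these marker lists was called between the lines on any day. The part of the markers in the differences of the members was not tested. At Day 0, 0% of the genes tested were called higher in shCTSL and 0.0386% lower, at Day 2 0.00644% and 0.0579%, at Day 4 0% and 0.0129%, and averaged over the 3 days 0.0901% and 0.18%. For the difference between the lines in Day 4 against Day 0 the shares were 0.00644% and 0%, and for Day 4 against Day 2 0% and 0%, where 753 genes had an unadjusted p under 0.05 in edgeR and DESeq2 called 11. At an unadjusted p under 0.05 (edgeR) 2 members passed at Day 0, 1 at Day 2, 1 at Day 4, 2 in the mean and 1 in each of the differences. Of all 15532 genes tested, 1127 passed at Day 0, 3014 at Day 2, 1897 at Day 4 and 3510 in the mean. In the difference in Day 4 against Day 0 it was 1042. DESeq2 called 1 member at Day 4 and limma-voom 2 at Day 0, 1 at Day 4 and 1 in the mean, and neither called a member at Day 2 or in the differences.

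At Day 0, Igf2bp2 was lower in shCTSL, with 63.3 and 64.9 against 102 and 103 CPM. The log2 difference was -0.68 (95% interval of this gene alone -1.07 to -0.29, adjusted p = 0.336). Trim71 was 1.55-fold lower, with 146 and 171 against 247 and 243 CPM, at -0.63 (-1.72 to 0.46, adjusted p = 0.897). On that day the libraries of the lines did not overlap for any member but Igf2bp3. The share of all genes without overlap was not computed. Without both shCTSL Day 2 libraries, which are not among the libraries compared here but share the fit, Igf2bp2 gave -0.67 (adjusted p = 9.02e-05) and Trim71 -0.62 (adjusted p = 0.00187). Both were then called, in a fit that called 0.292% of all genes higher and 1.08% lower. Hmga2 was the other member under an unadjusted p of 0.05, at 0.28 (0.029 to 0.54, adjusted p = 0.619).

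At Day 4, Hmga1 was 2.38-fold lower in shCTSL, with 1.14 and 0.84 against 2.34 and 2.36 CPM, at -1.25 (-1.82 to -0.69, adjusted p = 0.161), from 17 and 21 counts in shCTSL and 34 and 53 in shSC. Without both shCTSL Day 2 libraries it was called at -1.24 (adjusted p = 0.0035), where 2.94% of all genes were called higher and 2.95% lower. The other 7 genes differed by -0.37 for Trim71 to 0.11 for Igf2bp3. The 95% intervals of Lin28a (-0.24 to 0.20) and Hmga2 (-0.23 to 0.24) held no 1.5-fold difference, while that of Trim71 (-1.49 to 0.74) held one either way.

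At Day 2 the differences rested on the shCTSL libraries that stood apart. Hmga2 was lower in shCTSL, 90.8 and 103 against 116 and 126 CPM, at -0.33 (-0.57 to -0.089, adjusted p = 0.222). Its libraries did not overlap between the lines, nor did those of Lin28a and Igf2bp3. Trim71 differed by -0.47 (adjusted p = 0.561), by -2.01 without shCTSL Day 2 replicate 2 (called, adjusted p = 1.77e-07) and by 0.25 without replicate 1. Igf2bp2 differed by -0.35 (adjusted p = 0.273), by -0.72 without replicate 2 (called, adjusted p = 7.08e-06), and by -0.054 without replicate 1. Without replicate 2, 15.2% of all genes were called higher and 16.5% lower between the lines at Day 2, so calls of members in that fit stand against a background of that size. Averaged over the 3 days the lowest values were -0.55 for Hmga1, -0.49 for Trim71 and -0.41 for Igf2bp2. Their adjusted p were 0.111, 0.296 and 0.111 (edgeR).

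**Figure D5:**
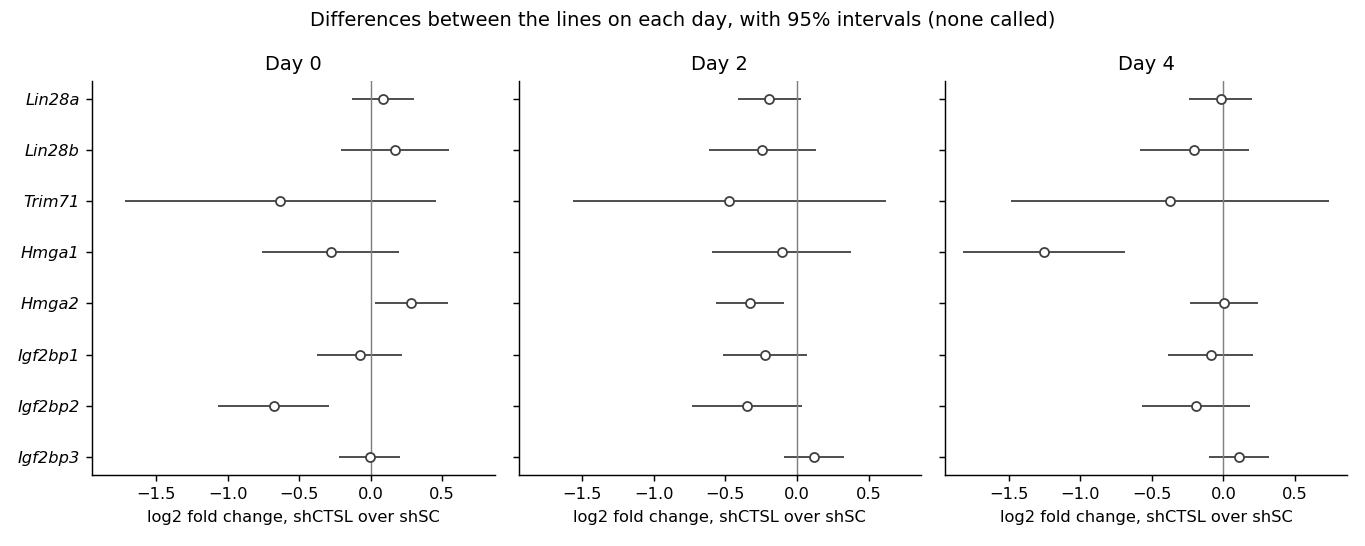
Log2 fold changes of the 8 genes between the lines (shCTSL over shSC) on Day 0, Day 2 and Day 4 with 95% intervals for each gene alone, none of them called. The intervals of Igf2bp2 at Day 0, Hmga2 at Day 2 and Hmga1 at Day 4 lie below 0, that of Hmga2 at Day 0 lies above 0, and those of Trim71 span more than 2 log2 units on each day.

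Other genes of the pathway were followed as lists, and in their counts rose and fell mean called higher and lower. From Day 0 to Day 4, 32.1% of all genes tested were called higher and 28.7% lower in shSC, and 32.3% and 27.6% in shCTSL. The counts of each list stand against these shares. Of the mRNAs of 19 proteins that process let-7, tail its precursors or carry out silencing, 4 rose and 4 fell in shSC from Day 0 to Day 4. In shCTSL 3 rose and 7 fell, and the medians were -0.42 and -0.34. Zcchc11 (TUT4), the uridylyl transferase that LIN28A recruits to let-7 precursors, rose by 1.61 (SE 0.26) in shSC, from 103 and 104 to 306 and 327 CPM. Ago4, an Argonaute protein, rose by 3.89 (SE 0.30). Xpo5, which exports microRNA precursors from the nucleus, and Tarbp2, a partner of Dicer, fell (-1.02, SE 0.21, and -0.98, SE 0.16).

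Of 24 further mRNAs widely described as let-7 targets, 10 rose and 9 fell from Day 0 to Day 4 in shSC, and 10 and 10 in shCTSL. Their medians were -0.04 and -0.18, against 0.03 and 0.06 over all genes tested. Igdcc3 and Prtg, cell surface proteins of the embryo, rose by 2.59 (SE 0.13) and 2.53 (SE 0.13), while Ccnd1, a G1 cyclin, and the growth regulator Myc fell (-3.45, SE 0.15, and -2.55, SE 0.15). The let-7 microRNAs themselves were not measured by poly(A) libraries: the 12 rows of let-7 genes held 4 to 16 counts in all per library, and none was tested. Mir99ahg, the host transcript of let-7c, had 1 count at Day 0 over the shSC libraries and 77 at Day 4, and 1 and 51 in shCTSL.

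All 8 genes of the insulin-like growth factor axis, whose Igf2 mRNA gave the IGF2BP proteins their name, rose from Day 0 to Day 4 in both lines, with medians of 2.88 and 2.64. Igf2 stood at 18.7 CPM (SD 1.0) in shSC at Day 0, 306 (SD 4.3) at Day 2 and 1229 (SD 123) at Day 4, and H19, the noncoding neighbour of Igf2, at 29.3 (SD 0.75), 882 (SD 53) and 2490 (SD 123). Igf1 went from 4 counts over the Day 0 libraries to 70.6 CPM (SD 3.2) at Day 4, and the receptors Insr and Igf2r rose by 1.79 (SE 0.20) and 1.35 (SE 0.26). Igf2 was the only gene of the list called between the lines, at Day 2, with 130 and 173 CPM in shCTSL against 303 and 309 in shSC (-1.01, SE 0.14, adjusted p = 0.0342). The call was kept by DESeq2 and lost in limma-voom (adjusted p = 0.428), with the replicate block (0.0570), with the libraries compared alone (0.708) and in 10 of the 12 fits that left out 1 library (up to 0.474). It was kept only without shCTSL Day 2 replicate 1 (-0.81) or replicate 2 (-1.24), the libraries that stood apart.

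The mRNAs of all 4 proteins of the complex in which IGF2BP1 holds Myc mRNA stable fell from Day 0 to Day 4 in both lines. Their medians were -0.92 and -1.14, where 28.7% and 27.6% of all genes tested were called lower. In shSC the changes were -1.56 (SE 0.11) for Ybx1, -0.96 (SE 0.10) for Syncrip and -0.88 (SE 0.11) for Hnrnpu. That of Dhx9 was -0.76 (SE 0.31), close to the threshold (adjusted p = 0.0459, edgeR). Of 5 mRNAs described as TRIM71 targets, Cdkn1a, which encodes the cell cycle inhibitor p21, rose by 1.596 (SE 0.14), and Egr1, an immediate early transcription factor, and Rbl1, a pocket protein of the retinoblastoma family, fell (-2.23, SE 0.21, and -0.82, SE 0.20) in shSC. In shCTSL 1 of the 5 was called higher and 1 lower, and Egr1 stood at 12.4 CPM (SD 1.7) at Day 0 and 12.3 (SD 1.2) at Day 4. Egr1 was called between the lines at Day 0, against 63.2 CPM (SD 12) in shSC (-2.35, SE 0.22, adjusted p = 0.00396), and averaged over the 3 days (-0.99, SE 0.12, adjusted p = 0.0163). At Day 0 Egr1 was no longer called when either of the shCTSL libraries of that day was left out (-2.50 and -2.22, with adjusted p of 0.126 and 0.129), nor without replicate 2 of shSC (-2.13, 0.0729). The call over the days was lost in 8 of the 12 fits that left out 1 library (adjusted p up to 0.105).

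Among 7 high mobility group genes outside the HMGA family, 2 rose and 2 fell from Day 0 to Day 4 in each line. Hmgn3 and Hmgb3 rose by 3.10 (SE 0.37) and 1.72 (SE 0.22), and Hmgb2 and Hmgn1 fell (-1.62, SE 0.22, and -0.75, SE 0.22) in shSC. Of 8 other oncofetal genes, 6 rose and 2 fell in each line. Afp, the fetal albumin, had 0 counts at Day 0 in shSC and stood at 39.5 CPM (SD 8.7) at Day 4, and Ptn, a growth factor, rose by 7.56 (SE 0.24). Tdgf1, a Nodal co-receptor, and Sall4, a pluripotency factor, fell (-6.51, SE 0.28, and -1.86, SE 0.10).

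The genes whose profile over the 12 libraries was most like that of each member were ranked by the root mean square difference of log2 CPM, each gene centred on its mean, with no test. For Lin28a they were Apobec3 (0.14), Nanog (0.16) and Zfp980 (0.16), against a spread of the Lin28a profile of 1.35. For Lin28b they were Panct2 (0.12), B3gnt7 (0.13) and Syt9 (0.15), and for Trim71 Tarbp1 (0.20), Tet2 (0.24) and Knl1 (0.25). Hmga1 was nearest to Ticrr (0.27), Iqgap3 (0.28) and Osbpl10 (0.29), and Hmga2 to Efnb2 (0.16), Has2 (0.21) and Parp8 (0.22). Igf2bp1 was nearest to Sun1 (0.063), Cep85 (0.070) and Dtl (0.070), Igf2bp2 to Lgr4 (0.14), Cd276 (0.16) and Grk5 (0.16), and Igf2bp3 to Ctdsp2 (0.077), Zfp612 (0.10) and Ssbp3 (0.11). No member was among the 3 nearest of another. The closest pair of members was Lin28b and Igf2bp1 (0.38), and the farthest Lin28a and Hmga2 (2.80).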

How the data were processed

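Poly(A) RNA-seq libraries were aligned by the authors to mm9 with STAR 2.3.0e after FastQC 0.11.2. Alignments with a mapping quality under 10 were removed with SAMtools 0.1.19, and reads were counted per RefSeq gene with featureCounts 1.6.2. The deposited values are these raw counts. The sources used here do not state whether counting used strand. The authors' signal tracks were not used.

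The counts of all 12 libraries were scaled by TMM and fitted with edgeR 4.0.16 (R 4.3.3), 1 mean per line and day, after filterByExpr (minimum count 10), leaving 15532 of 24495 genes and 6 residual degrees of freedom before moderation. Genes were called at an adjusted p under 0.05 and 1.5-fold. Normalized CPM are relative to the TMM-scaled library size, summed over the genes tested. The fit was tested on simulated data. DESeq2 1.42.0, limma 3.58.1 (voom with sample weights), other scaling and filters, the libraries compared alone, offsets for exonic length, a log2 cutoff of 1.5 and omitted libraries were alternatives. The study calls the replicates biological, and the labels do not say whether they were separate cultures, so p-values measure the spread between these samples. Levels scaled for windows found elsewhere, and the alternatives for Ctsl, Igf2 and Egr1, were chosen after seeing the data.

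The members and lists were chosen with earlier results of these data known. Named were all members, Ctsl, and of each list the genes called between the lines and the 2 largest and 2 smallest changes among those called in shSC from Day 0 to Day 4. Marker lists are given by counts and sums, with Tubb3, Pecam1 and Thy1 named after their values were seen. Exonic lengths, the union of the annotated exons of a gene, came from GENCODE M1, matched by symbol for 20561 genes and by another name for 1708. Tables used Python 3.11.15, pandas 2.3.3 and numpy 2.4.6, and figures matplotlib 3.10.9.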

Additional observations from a re-analysis of the deposited data

How the results depend on the processing

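The members' log2 fold changes and calls were recomputed under each alternative, and those of Ctsl, Igf2 and Egr1 where called between the lines. Marker sums, shares and other list genes were not. DESeq2, limma-voom and fits on fewer libraries also change the scaling, the genes tested or the test. The members' calls from Day 0 to Day 4 kept their direction under every alternative. Each group had 2 replicates, and the shCTSL Day 2 libraries stood apart, which limits the comparisons between the lines. The cause of the changes below was not tested.

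With the fold cutoff at 1.5 on the log2 scale, 0 of the 4 members remained called from Day 2 to Day 4 and 3 of the 8 from Day 0 to Day 4 in shSC, and 1 of 5 and 5 of 8 in shCTSL. With only the libraries compared in the fit, 1 member was called from Day 2 to Day 4 in shCTSL. Between the lines, where no member was called, limma-voom called 2 at Day 0, 1 at Day 4 and 1 averaged over days. DESeq2 called 1 at Day 4, as did the table without a filter. Offsets for exonic length called 1 at Day 0. The libraries compared alone called 2 at Day 0 and 1 at Day 4, and so did the fit without both shCTSL Day 2 libraries. Leaving out 1 library gave 0 to 2 called at Day 0, 0 to 2 at Day 2, 0 to 1 at Day 4, 0 to 2 in the mean, and 0 to 2 in the line difference in Day 4 against Day 2. Over all genes, those called between the lines at Day 0, Day 2 and Day 4 were 6, 10 and 2 in edgeR, 48, 125 and 132 in DESeq2, 254, 0 and 723 in limma-voom, 31, 42 and 30 with length offsets and 269, 0 and 711 with the libraries compared alone. Without both shCTSL Day 2 libraries they were 212 at Day 0 and 909 at Day 4. Without shCTSL Day 2 replicate 2 they were 214, 5012 and 924, with 1217 in the mean and 2323 in the line difference in Day 4 against Day 2, and without replicate 1 211, 96 and 926, with 121 and 567. In the mean over the days edgeR called 42 and DESeq2 and limma-voom 128 each.

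Offsets for exonic length turned Lin28b from Day 0 to Day 2 in shSC to -0.096. Between the lines they turned Igf2bp1 to 0.036 and Igf2bp3 to 0.030 at Day 0, Lin28b to 0.0033 and Igf2bp1 to 0.056 at Day 2, and Lin28b to 0.0070 and Igf2bp1 to 0.14 at Day 4. In the mean over the days they turned Lin28b to 0.096, Hmga2 to 0.12 and Igf2bp1 to 0.076, and in the line difference in Day 4 against Day 0 Igf2bp1 to 0.10. Hmga1 from Day 2 to Day 4 in shSC became -0.0014 with size factors (RLE) and in DESeq2, -0.018 without a filter, -0.00018 with at least 1 CPM in 2 libraries, -0.022 with the libraries compared alone and -0.021 without both shCTSL Day 2 libraries. Igf2bp3 at Day 0 became 0.016 with size factors, 0.015 in DESeq2, 0.012 with the libraries compared alone and 0.0037 without both shCTSL Day 2 libraries. Hmga2 at Day 4 became -0.025 without a filter, and Lin28a at Day 4 0.0048 with the libraries compared alone. Igf2bp3 in the line difference in Day 4 against Day 2 became 0.021 with size factors and in DESeq2.

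Leaving out 1 library moved Hmga1 from Day 2 to Day 4 in shSC from -0.039 to 0.033. In shCTSL it moved Lin28b from Day 0 to Day 2 between -0.64 and 0.0078, Igf2bp2 between -0.20 and 0.49, and Trim71 from Day 2 to Day 4 between -1.41 and 0.86. Between the lines the ranges were -0.072 to 0.052 for Igf2bp3 at Day 0, -0.58 to 0.035 for Lin28b, -2.01 to 0.25 for Trim71 and -0.40 to 0.11 for Hmga1 at Day 2, and -0.074 to 0.082 for Hmga2 and -0.056 to 0.014 for Lin28a at Day 4. In the mean they were -0.20 to 0.0077 for Lin28b and -0.045 to 0.025 for Hmga2. In the line difference in Day 4 against Day 0 Igf2bp1 ran from -0.067 to 0.043. In that in Day 4 against Day 2 the ranges were -0.059 to 0.041 for Igf2bp3, -0.23 to 0.38 for Lin28b, -0.62 to 1.63 for Trim71, -0.073 to 0.38 for Igf2bp1 and -0.13 to 0.53 for Igf2bp2. A group left with 1 library is assumed to vary like the other groups.

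The replicate numbers of the groups did not mark pairs: deviations of same-numbered libraries correlated by -0.297 to 0.115 over 15 pairs of groups, 1 of them over 0.1. With the replicate number as a block, 6 and 4 members were called in the first and second step in shSC and 0 in each comparison between the lines, and no member changed direction or call. Over all genes the block fit called 4, 0 and 1 between the lines at Day 0, Day 2 and Day 4, and 13 in the mean.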
